A study of Mus musculus with 4 samples.

Results

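Transcripts of 4 genes, Tcf7, Slamf6, Id3 and Id2, were followed in T cells from the pancreatic islets of NOD mice. They are 4 of the 27998 genes in the count tables, and they were chosen by name as genes of the progenitor or stem-like T cell state, with earlier results of these data known. Islet T cells were taken from pre-diabetic NOD females at 16 weeks and at 8 weeks of age, as live cells stained with an antibody to the T cell receptor beta chain, and the NOD strain develops autoimmune diabetes without any engineered allele. Each age was represented by 1 gene expression library and 1 receptor library from 5' droplet-based sequencing, so the comparison between ages had no replicate and no test. How many mice gave each library is not stated in the labels. The series is titled after stem-like T cells and exhaustion resistance in the CD4 response, and the comparisons below give the 4 genes along the lines that question draws: lineage, Pdcd1, division, clone size and age.

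Tcf7 encodes TCF-1, a DNA-binding factor that is needed for the self-renewing progenitor cells from which memory and chronically stimulated T cells are replenished, and that is usually turned down as T cells become effectors. Slamf6 encodes a surface receptor of the SLAM family that binds itself on neighbouring cells, signals through the adaptor SAP, and is widely used with TCF-1 to mark progenitor exhausted CD8 T cells. Id3 and Id2 encode proteins with no DNA-binding region of their own that pair with E proteins and keep them off DNA. In mouse CD8 T cells Id3 is known as a marker of long-lived memory precursors and progenitor cells, whereas Id2 is needed by effector cells and by innate lymphocytes.

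Tcf7 (ENSMUSG00000000782) lies on the minus strand at chr11:52252371-52283014 of mouse build mm10, and Slamf6 (ENSMUSG00000015314) lies on the plus strand at chr1:171917515-171953170. Id3 (ENSMUSG00000007872) lies on the plus strand at chr4:136143497-136145755, and Id2 (ENSMUSG00000020644) on the minus strand at chr12:25093799-25097140. The annotation places Gm26551, on the same strand, and A630014C17Rik, on the other, over Tcf7, and Gm37065 over Slamf6 on the opposite strand. Whether the counting used strand is not given in the sources used here, so reads from the overlapping stretches may be divided between these genes.

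The 16-week library held 2107 barcodes and 8183747 unique molecular identifiers (UMIs, each standing for 1 RNA molecule caught in a droplet). At 8 weeks there were 2043 barcodes and 8659371 UMIs. After filters, 1924 and 1866 T cells remained, with medians of 2931 UMIs per cell at 16 weeks and 2975 at 8 weeks, and a CD3 gene was seen in 99.9% and 99.6% of them. The cells were placed in classes by UMIs of Cd4, Cd8a, Cd8b1, Foxp3 and Pdcd1, so that none of the 4 genes chose the class it was measured in. A class chosen by the presence of a UMI holds deeper cells: the median was 6003 and 5813 UMIs in Foxp3-positive Cd4 cells, 3258 and 3378 in Cd8 cells, and 3054 and 3183 in conventional (Foxp3-negative) Cd4 cells at 16 and 8 weeks. Levels are therefore given in CPM, a gene's UMIs for every 1000000 UMIs in the class, and shares of cells with a UMI also after thinning each cell to 1700 UMIs. Cells with 2 or more productive beta chains, which include pairs of cells in 1 droplet, made up 35.5% and 26.7% of Foxp3-positive cells but 13.1% and 8.85% of conventional cells. Their part in the results was not tested beyond leaving them out of many, but not all, of the ratios. The 2 RNA libraries shared 5 barcodes. Regulatory T cell markers (Foxp3, which set the class, Il2ra, Ikzf2, Gpr83 and Ctla4) summed to 1339 and 1364 CPM in Foxp3-positive cells, against 288 and 310 CPM in conventional cells, where 4 of the 5 were still seen. Acinar enzyme transcripts, from the surrounding pancreas, summed to 194, 167 and 120 CPM in Foxp3-positive, Cd8 and conventional cells at 16 weeks, against 124, 69.9 and 77.2 CPM at 8 weeks. All 11 listed acinar genes were seen in each class at each age, except Cela3b, which was at 0 in Cd8 cells at 8 weeks, and a stricter acinar limit of 0.2% of a cell's UMIs moved none of the ratios it was tried on beyond their intervals. Of 4 listed B cell genes, Cd79b had UMIs in each class at both ages, Cd79a in conventional cells at 8 weeks alone, and Ms4a1 was at 0 in all 3 classes. The 4 genes summed to 5.74, 36.9 and 4.13 CPM in Foxp3-positive, Cd8 and conventional cells at 16 weeks, against 9.05, 21.6 and 5.89 CPM at 8 weeks, and their part in the results was not tested.

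All 4 genes were sparse. A Tcf7 UMI was present in 45.8% of T cells at 16 weeks and in 43.9% at 8 weeks, and in 0 of the 6 excluded non-T barcodes without CD3 UMIs, whose median was 1782 UMIs. Slamf6 was seen in 33.2% and 37.1% of T cells, Id3 in 21.7% and 25.3%, and Id2 in 22.1% and 22.3%, against 2, 1 and 1 of those 6 barcodes. Thinned to 1700 UMIs, the shares at 16 and 8 weeks were 29.0% and 27.6% for Tcf7, 18.5% and 19.1% for Slamf6, 12.8% and 16.1% for Id3, and 11.7% and 12.2% for Id2. A cell without a UMI of one of these genes cannot be called negative at this depth.

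The genes differed in how their UMIs were spread over cells. Cells with 5 or more Id3 UMIs numbered 30 at 16 weeks and 34 at 8 weeks, and they held 28.0% and 23.3% of all Id3 UMIs. For Tcf7 such cells held 11.0% and 14.2% of UMIs, for Slamf6 13.5% and 11.9%, and for Id2 15.9% and 9.94%. Id3 was thus the gene for which single cells weighed most. The highest cell had 27 Id3 UMIs and was a dividing, Pdcd1-positive conventional Cd4 cell of an expanded clone at 16 weeks. Most Id3 ratios between classes that hold it are therefore given below with and without it. The Id2 to Id3 ratios and the correlations of Id3 with other genes are given with it only.

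**Figure D1:**
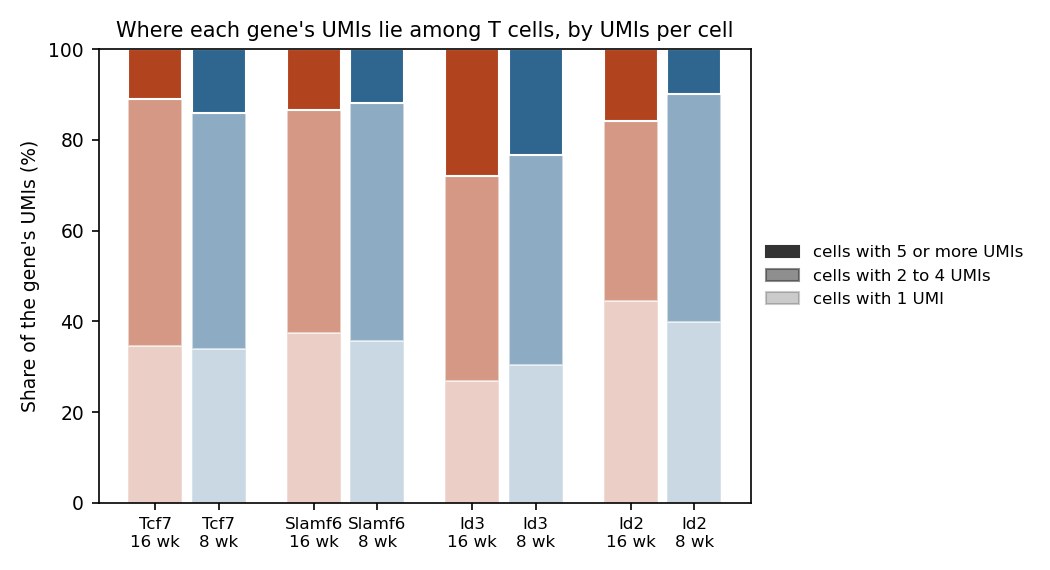
Percent of each gene's UMIs that lay in T cells with 1, with 2 to 4 and with 5 or more UMIs of that gene, as stacked bars for the 16-week and 8-week libraries. Id3 had 30 and 34 cells with 5 or more UMIs, which held 28.0% and 23.3% of its UMIs, a larger part than for the other genes.

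Across lineages, Tcf7 was lowest in Foxp3-positive Cd4 cells and highest in conventional Cd4 cells at both ages. At 16 weeks Tcf7 stood at 113 CPM in the 93 Foxp3-positive cells (95% counting interval 89.7 to 141), 165 CPM in the 321 Cd8 cells (144 to 188) and 227 CPM in the 648 conventional cells (209 to 245). In the 8-week library the level was 79.1 CPM in 116 Foxp3-positive cells (61.7 to 100), 151 CPM in 296 Cd8 cells (131 to 172) and 208 CPM in 655 conventional cells (192 to 224). No neighbouring pair of these intervals overlapped in either library. Cells with no UMI of either lineage gene, which were the shallowest class, had 226 and 202 CPM of Tcf7, close to conventional cells.

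The log2 ratio of Foxp3-positive to conventional cells for Tcf7 was -0.99 at 16 weeks (-1.36 to -0.66) and -1.38 at 8 weeks (-1.77 to -1.03). Of all genes with 50 or more UMIs in these classes, 5.43% of 6005 at 16 weeks and 6.05% of 6450 at 8 weeks were lower past 1.5-fold, and 11.5% and 9.75% were higher. The size at 16 weeks depended on the cells counted: it was -1.89 without cells of 2 or more beta chains, -1.92 among cells with 2000 to 5000 UMIs and -0.74 (-1.13 to -0.39) without dividing cells, all lower past 1.5-fold. Slamf6 was at 133 CPM in Foxp3-positive and 156 CPM in conventional cells at 16 weeks, a log2 ratio of -0.22 whose interval included 0 (-0.57 to 0.10). At 8 weeks Slamf6 was at 93.8 and 173 CPM, a log2 ratio of -0.88 (-1.23 to -0.55). Among cells with 2000 to 5000 UMIs these ratios were 0.47 and -0.45, so the direction at 16 weeks turned and the 8-week value fell short of 1.5-fold. Id3 gave log2 ratios of 0.28 and -0.37 and Id2 of 0.07 and -0.23 at 16 and 8 weeks, none past 1.5-fold. The 16-week Id3 ratio was 0.43 (0.04 to 0.79) without the conventional cell of 27 UMIs, 0.59 (0.16 to 0.99) without dividing cells and 1.40 with equal weight per cell. Under a stricter cell filter of 1000 genes and 5% mitochondrial UMIs it was -0.10, with 64 in place of 83 Id3 UMIs in Foxp3-positive cells. The direction of this ratio thus depended on the cells counted.

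Thinned to equal depth, Tcf7 was found in 20.9% of Foxp3-positive and 32.3% of conventional cells at 16 weeks, and in 12.04% and 31.5% at 8 weeks. Without thinning the same shares were 41.9% against 52.2%, and 33.6% against 50.2%. Of 10 genes of the resting or progenitor state, 5 were lower and 1 higher in Foxp3-positive cells past 1.5-fold at 16 weeks, and 6 lower and 0 higher at 8 weeks, with medians of -0.57 and -0.89 against 0.11 and 0.07 over all genes. Beside these counts, 5.43% and 6.05% of all genes were lower and 11.5% and 9.75% higher. Among the 10 genes the interleukin 7 receptor chain Il7r had log2 ratios of -1.02 and -1.39. Lef1, the closest relative of TCF-1 in T cells, was at 152 against 412 CPM at 16 weeks and at 101 against 196 CPM at 8 weeks.

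Cd8 cells stood below conventional Cd4 cells for Tcf7 and Slamf6 by amounts that fell short of 1.5-fold. The Tcf7 log2 ratio of Cd8 to conventional cells was -0.46 in both libraries (-0.69 to -0.23 at 16 weeks and -0.70 to -0.24 at 8 weeks). For Slamf6 it was -0.39 (-0.66 to -0.12) and -0.37 (-0.62 to -0.12), from 119 against 156 CPM at 16 weeks and 134 against 173 CPM at 8 weeks. Id3 was higher in Cd8 cells beyond counting error at 16 weeks, at 138 against 98.3 CPM, but not at 8 weeks, at 112 against 106 CPM, with log2 ratios of 0.49 (0.21 to 0.77) and 0.09 (-0.20 to 0.37). Id2 stood at 73.1 against 90.4 CPM at 16 weeks and at 87.9 against 70.6 CPM at 8 weeks, and neither interval of the ratio left out 0. The 16-week Id3 ratio was 0.63 (0.35 to 0.92) without the conventional cell of 27 UMIs and 0.74 (0.43 to 1.04) without dividing cells, both past 1.5-fold. Of the 183 Id3 UMIs of Cd8 cells at 16 weeks, however, 69 lay in Pdcd1-positive cells, most of them in the few cells described below. The ratio was not recomputed without those few cells. With all cells none of the 4 genes passed 1.5-fold, where 3.77% and 4.93% of all genes were higher and 8.3% and 8.16% lower.

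The partners of TCF-1 were not uniformly lower in Cd8 cells. Of 17 listed TCF-1 family and partner genes, 11 could be compared, of which 2 were higher and 1 lower at 16 weeks, and 3 higher and 2 lower at 8 weeks. Runx3, which directs the CD8 lineage, had log2 ratios of 0.83 and 1.12, and Runx1 of -0.90 and -0.85. The progenitor list held genes on both sides: Xcl1 was higher in Cd8 cells, with 3.84 and 2.47, and the follicular homing receptor Cxcr5 lower, with -1.25 and -2.07.

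**Figure D2:**
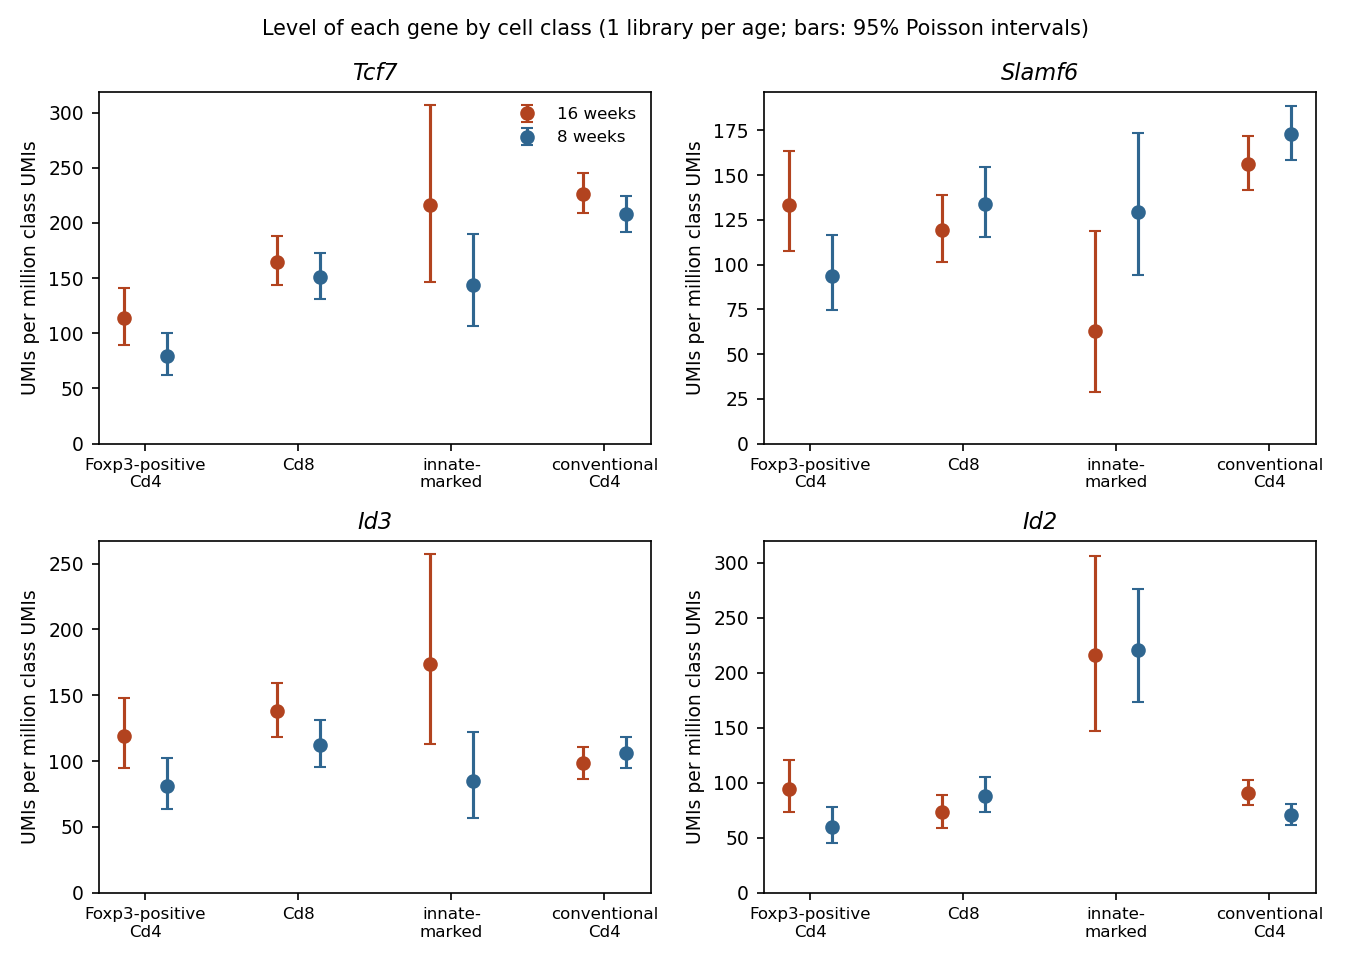
CPM of Tcf7, Slamf6, Id3 and Id2 by cell class at 16 and 8 weeks, with 95% counting intervals. Tcf7 was lowest in Foxp3-positive Cd4 cells, at 113 and 79.1 CPM, and highest among the lineage classes in conventional Cd4 cells, at 227 and 208 CPM, leaving aside cells with a UMI of an innate marker.

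Id2 stood apart in T cells with a UMI of Zbtb16, Ncr1 or Klrb1c, genes of innate-like T cells and natural killer cells. In these 23 cells at 16 weeks and 40 cells at 8 weeks, which are also counted in their lineage classes, Id2 reached 216 CPM (147 to 306) and 220 CPM (173 to 276), against 90.4 and 70.6 CPM in conventional Cd4 cells. With cells thinned to 1700 UMIs, Id2 was found in 39.1% and 52.5% of them, against 11.9% and 10.6% of conventional cells. Their log2 ratio of Id2 to Id3 UMIs was 0.30 (-0.50 to 1.13) at 16 weeks and 1.36 (0.73 to 2.04) at 8 weeks. The same ratio was -0.91 and -0.35 in Cd8 cells, -0.33 and -0.44 in Foxp3-positive cells, and -0.12 and -0.58 in conventional cells. The conventional 16-week value came from 241 Id2 and 262 Id3 UMIs, and 235 Id3 UMIs remained without the top Id3 cell. No direction is read from that value. These ratios compare UMIs of 2 genes within a class and are read across classes, not as relative amounts of the 2 genes.

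Between the ages, the conventional Cd4 and Cd8 values of Tcf7, Slamf6 and Id3 differed by no more than counting error with all cells counted. Conventional cells had log2 ratios of 16 to 8 weeks of 0.13 for Tcf7, -0.15 for Slamf6 and -0.11 for Id3, all with intervals that included 0. The last 2 did not hold when cells were left out: without dividing cells Slamf6 was at -0.30 (-0.51 to -0.10) and Id3 at -0.30 (-0.58 to -0.03), and without the cell of 27 UMIs Id3 was at -0.25 (-0.50 to -0.0065). That last value left out a cell at 16 weeks alone. With the top Id3 cell left out at both ages, the ratio stayed within its interval with all cells. Id2 was the exception in conventional cells, at 90.4 against 70.6 CPM, a log2 ratio of 0.36 (0.09 to 0.63), which did not reach 1.5-fold. In Cd8 cells the 4 log2 ratios lay between -0.27 and 0.29, and none left out 0. None of the 4 genes passed 1.5-fold in either class, where 3.5% and 4.27% of all genes in conventional cells and 3.08% and 6.07% in Cd8 cells were higher and lower. The same held in cells with no lineage UMI, whose 4 log2 ratios lay between -0.10 and 0.16 and where 2.38% of all genes were higher and 5.31% lower.

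Within Pdcd1-positive conventional cells, Id2 stood at 108 CPM in the 16-week and 70.7 CPM in the 8-week library, a log2 ratio of 0.62 (0.22 to 1.02), where 4.77% of all genes were higher and 4.32% lower past 1.5-fold. In Pdcd1-negative conventional cells Slamf6 was at 135 against 166 CPM and Id3 at 87.6 against 115 CPM, log2 ratios of -0.29 (-0.55 to -0.03) and -0.39 (-0.71 to -0.06). Neither passed 1.5-fold, where 2.87% of all genes were higher and 4.09% lower. In Pdcd1-positive Cd8 cells Id3 was at 201 against 120 CPM, a log2 ratio of 0.75 (0.26 to 1.24), where 3.67% of all genes were higher and 6.34% lower past 1.5-fold. Only 46 cells made up that class at 16 weeks, and 6 of them held 72.5% of its Id3 UMIs. In Pdcd1-negative Cd8 cells all 4 genes had age ratios whose intervals included 0, from -0.20 for Slamf6 to 0.17 for Id2, where 3.16% of all genes were higher and 4.42% lower.

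All 4 genes were higher at 16 weeks in Foxp3-positive cells, with intervals that left out 0. Tcf7 had 79 and 70 UMIs there, a log2 ratio of 0.52 (0.04 to 1.00), and Slamf6 had 93 and 83, a log2 ratio of 0.51 (0.07 to 0.95). Id3 had 83 and 72 UMIs, giving 0.55 (0.08 to 1.02), and Id2 had 66 and 53, giving 0.66 (0.12 to 1.21). Only Id2 passed 1.5-fold, as did 5.16% of all genes in that direction, against 5.96% in the other. Without the cells that had 2 or more beta chains, the log2 ratio became -0.57 for Tcf7, 0.36 for Slamf6, 0.0045 for Id3 and 1.24 for Id2, so the common direction of the 4 genes did not hold. With dividing cells left out the 4 ratios were 0.50, 0.47, 0.33 and 0.65 for Tcf7, Slamf6, Id3 and Id2, and every interval included 0.

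Pdcd1 encodes the inhibitory receptor PD-1, which T cells acquire on activation and keep under chronic stimulation. In conventional Cd4 cells with a Pdcd1 UMI, Tcf7 was close to its level in cells without one, at 210 CPM in 141 cells against 235 CPM in 507 cells at 16 weeks, and at 203 CPM in 223 cells against 213 CPM in 432 cells at 8 weeks. The log2 ratios were -0.16 (-0.41 to 0.09) and -0.07 (-0.30 to 0.15). These intervals leave out a drop of 1.5-fold or more in both libraries. At equal depth 31.4% of Pdcd1-positive against 32.6% of Pdcd1-negative cells had a Tcf7 UMI at 16 weeks, and 33.3% against 30.4% at 8 weeks.

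Slamf6 was at 194 against 135 CPM in Pdcd1-positive and Pdcd1-negative conventional cells at 16 weeks, a log2 ratio of 0.52 (0.23 to 0.81), and at 180 against 166 CPM at 8 weeks, a log2 ratio of 0.12 (-0.13 to 0.37). Without dividing cells the ratios were 0.75 (0.42 to 1.06), from 225 against 134 CPM, and 0.46 (0.19 to 0.73), from 233 against 169 CPM. The 8-week ratio was also higher with equal weight per cell, at 0.41, in conventional cells without Il2ra, Ikzf2 and Gpr83 UMIs, at 0.47, and among cells with 2000 to 5000 UMIs, at 0.64. At equal depth the Slamf6 shares were 29.2% against 16.9% and 25.1% against 20.3%. Id3 was at 118 against 87.6 CPM at 16 weeks and at 97.8 against 115 CPM at 8 weeks, log2 ratios of 0.43 (0.06 to 0.79) and -0.23 (-0.55 to 0.09). The cell of 27 UMIs held 24.5% of the Id3 UMIs of the 16-week Pdcd1-positive cells, and without it the ratio was 0.06 (-0.34 to 0.45). Id2 was at 108 against 80.7 CPM at 16 weeks and at 70.7 against 70.6 CPM at 8 weeks, log2 ratios of 0.43 (0.04 to 0.81) and 0.0004 (-0.40 to 0.40). Without dividing cells the Id2 ratios were 0.56 (0.13 to 0.98) and -0.03 (-0.49 to 0.42). In conventional cells without Il2ra, Ikzf2 and Gpr83 UMIs the 16-week Id2 ratio was 1.00, past 1.5-fold. None of the 4 genes was lower in Pdcd1-positive conventional cells beyond counting error at either age, and with all cells none passed 1.5-fold, where 16% and 13.6% of all genes were higher and 6.71% and 6.91% lower. Median depth was 4886 and 5339 UMIs in the Pdcd1-positive cells, against 2911 and 2713.5 in the others.

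Other genes of the resting state were much lower in the same cells. Lef1 was at 151 against 552 CPM at 16 weeks and 76.3 against 325 CPM at 8 weeks, log2 ratios of -1.86 and -2.09. Satb1, a chromatin organiser of naive T cells, had log2 ratios of -2.36 and -2.64, and Il7r of -1.75 and -1.96. Of the progenitor-state list, 5 of 9 comparable genes were lower and 1 higher at 16 weeks, and 6 of 10 lower and 2 higher at 8 weeks, with medians of -1.23 and -1.19 against 0.16 and 0.10 over all genes. Cxcr5 was on the higher side, with 2.18 and 1.87. Of the effector-state list, 8 of 9 and 7 of 8 comparable genes were higher, among them Ifng, with 1.49 and 1.02, and the inhibitory receptor Lag3, with 0.91 and 1.35. Beside these counts, 16% and 13.6% of all genes were higher and 6.71% and 6.91% lower past 1.5-fold. Sh2d1a, which encodes the adaptor SAP that carries SLAMF6 signals, had log2 ratios of 0.83 and 0.85, and the E protein gene Tcf12 of 0.73 and 0.61.

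With all cells counted, Tcf7 was lower in Pdcd1-positive Cd8 cells, and leaving out dividing cells took most of that difference away. Tcf7 was at 123 CPM in 46 Pdcd1-positive against 180 CPM in 275 Pdcd1-negative Cd8 cells at 16 weeks, and at 117 CPM in 85 against 179 CPM in 211 cells at 8 weeks. The log2 ratios were -0.54 (-1.07 to -0.06) and -0.62 (-1.05 to -0.20), where 21.6% and 21.1% of all genes were higher and 9.62% and 6.91% lower past 1.5-fold. Without the dividing cells Tcf7 was at 178 against 182 CPM in 38 and 270 cells at 16 weeks, and at 162 against 176 CPM in 69 and 204 cells at 8 weeks, log2 ratios of -0.013 (-0.57 to 0.48) and -0.12 (-0.58 to 0.33). Slamf6 was at 99.2 against 126 CPM and at 121 against 145 CPM, with log2 ratios of -0.33 and -0.25 whose intervals included 0, and without dividing cells of 0.27 and -0.013, which included it too. Id3 was at 201 against 116 CPM at 16 weeks, a log2 ratio of 0.80 (0.35 to 1.24), and at 120 against 106 CPM at 8 weeks, a log2 ratio of 0.17. In non-dividing cells the Id3 ratios were 1.45 (0.97 to 1.90) and 0.50 (-0.0018 to 0.99). The few Pdcd1-positive Cd8 cells named above held most Id3 UMIs of that class at 16 weeks, and these intervals do not count that. Id2 showed the reverse by age, at 75.9 against 72.1 CPM at 16 weeks and 117 against 63.7 CPM at 8 weeks, log2 ratios of 0.09 (-0.63 to 0.74) and 0.87 (0.33 to 1.43).

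The Cd8 ratio minus the conventional Cd4 ratio, a contrast chosen after the values had been seen, was -0.38 for Tcf7 at 16 weeks (-0.92 to 0.16) and -0.54 at 8 weeks (-1.01 to -0.08). For Slamf6 it was -0.85 (-1.46 to -0.24) and -0.37 (-0.86 to 0.12). Each gene's difference between the lineages was thus beyond counting error in 1 of the 2 libraries. These contrasts count all cells, and without dividing cells the Tcf7 ratios were -0.013 and -0.12 in Cd8 cells and -0.04 and 0.11 in conventional cells. The values also differed with depth. Among cells with 2000 to 5000 UMIs, the Tcf7 log2 ratio in Cd8 cells was -0.23 at 16 weeks and 0.66 at 8 weeks, and in conventional cells 0.31 and 0.18. The Slamf6 ratios in conventional cells were 0.91 and 0.64 in that depth range.

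Set directly against Pdcd1-positive conventional cells, Pdcd1-positive Cd8 cells had less Tcf7, at 123 against 210 CPM at 16 weeks and 117 against 203 CPM at 8 weeks. The log2 ratios were -0.77 (-1.30 to -0.29) and -0.79 (-1.18 to -0.43), and for Slamf6 -0.95 (-1.54 to -0.43) and -0.56 (-0.95 to -0.20). Among non-dividing cells the Tcf7 levels were 178 against 231 CPM and 162 against 230 CPM, with ratios of -0.36 (-0.93 to 0.15) and -0.50 (-0.93 to -0.10), short of 1.5-fold, and the Slamf6 ratios were -0.69 (-1.33 to -0.13) and -0.63 (-1.08 to -0.22). Past 1.5-fold, 12.1% and 9.18% of all genes were lower and 6.56% and 6.36% higher. These cells had similar depth, with medians of 5784.5 and 5729 UMIs in Cd8 against 4886 and 5339 in conventional cells. Among cells with 2000 to 5000 UMIs the Tcf7 log2 ratio was -0.94 at 16 weeks and -0.05 at 8 weeks. Id3 was higher in Pdcd1-positive Cd8 cells at 16 weeks, with a log2 ratio of 0.77 (0.31 to 1.22), which was 1.14 (0.66 to 1.62) without the conventional cell of 27 UMIs and 1.74 (1.20 to 2.29) without dividing cells. These Id3 values too rest largely on the few Cd8 cells that held most Id3 UMIs of their class. Id2 was higher at 8 weeks, with 0.73 (0.28 to 1.16).

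Lef1 was far lower in Pdcd1-positive than in Pdcd1-negative Cd8 cells too, with log2 ratios of -2.56 and -2.32, as was Il7r, with -1.78 and -2.33. Of the progenitor-state list, 6 of 9 comparable genes were lower and 1 higher in both libraries. The gene on the higher side was Xcl1, a chemokine of progenitor exhausted CD8 cells, with 3.19 and 1.81. Of the effector-state list, 8 of 9 and 9 of 10 were higher, with Lag3 at 2.69 and 1.80. Beside these counts, 21.6% and 21.1% of all genes were higher and 9.62% and 6.91% lower past 1.5-fold, with medians of 0.18 and 0.21 over all genes.

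**Figure D3:**
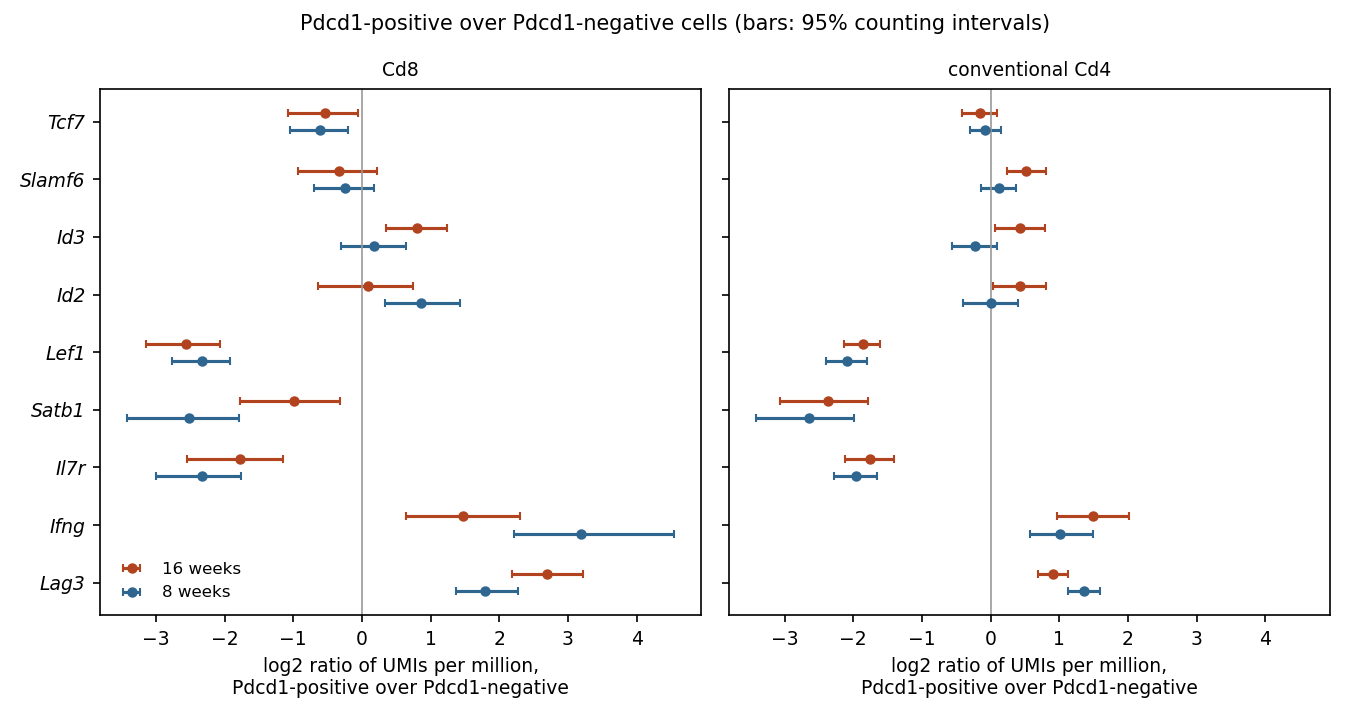
Log2 ratio of CPM in Pdcd1-positive over Pdcd1-negative cells, in Cd8 cells on the left and conventional Cd4 cells on the right, at both ages, with 95% counting intervals. In conventional cells Tcf7 lay at -0.16 and -0.07 and Slamf6 at 0.52 and 0.12, while Lef1 lay at -1.86 and -2.09 and Satb1 at -2.36 and -2.64.

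In Foxp3-positive cells the Pdcd1 comparison gave opposite directions for Id3 at the 2 ages. At 16 weeks Id3 was at 146 CPM in 45 Pdcd1-positive and 84.8 CPM in 48 Pdcd1-negative cells, and at 8 weeks at 61.6 CPM in 55 and 112 CPM in 61 cells. Tcf7 was at 133 against 88.1 CPM at 16 weeks and 70.9 against 91.9 CPM at 8 weeks, with both intervals of the log2 ratio including 0. Id3 alone passed 1.5-fold, where 6.15% and 6.92% of all genes were higher and 4.62% and 4.18% lower. Without dividing cells the Id3 ratios were 0.39 (-0.36 to 1.21) and -0.37 (-1.27 to 0.51), short of 1.5-fold and with intervals that included 0. The 4 genes gave 57 or fewer UMIs in each of these classes. This comparison was not recomputed without cells of 2 or more beta chains.

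Dividing cells, with UMIs of 3 or more of 12 cell cycle genes, had a lower Tcf7 level in CPM. Over all T cells, Tcf7 was at 102 CPM in 86 dividing against 211 CPM in 1838 other cells at 16 weeks, and at 106 CPM in 132 against 193 CPM in 1734 cells at 8 weeks. The log2 ratios were -1.05 (-1.33 to -0.79) and -0.86 (-1.08 to -0.65), where 18.7% and 16.9% of all genes were lower past 1.5-fold, and 18.4% and 15% higher. Dividing cells held several times the UMIs of other cells. Their Tcf7 UMIs numbered 125 against 1382 in the other cells at 16 weeks, and 212 against 1228 at 8 weeks. Per cell, dividing cells thus held more Tcf7 UMIs, and the lower CPM is a smaller part of a larger total. The comparison was repeated within lineages, where the gap in depth remained.

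Within conventional Cd4 cells, Tcf7 was at 179 CPM in 36 dividing against 236 CPM in 612 other cells at 16 weeks and at 167 CPM in 47 against 220 CPM in 608 at 8 weeks. The log2 ratios of -0.40 (-0.76 to -0.06) and -0.39 (-0.70 to -0.11) were beyond counting error but short of 1.5-fold, where 17.2% and 17.9% of all genes were lower and 20.9% and 18.1% higher. In Cd8 cells the gap was wider, at 68.6 CPM in 13 dividing against 181 CPM in 308 other cells at 16 weeks and at 77.0 CPM in 23 against 171 CPM in 273 at 8 weeks. Those log2 ratios were -1.35 (-2.33 to -0.59) and -1.12 (-1.84 to -0.52), where 19.4% and 14.5% of all genes were lower past 1.5-fold and 28.3% and 27.1% higher. The Cd8 ratio minus the conventional ratio was -0.95 (-1.82 to -0.09) and -0.73 (-1.41 to -0.05), a difference beyond counting error in both libraries for Tcf7. It rests on 13 and 23 Tcf7 UMIs in dividing Cd8 cells, and the contrast was chosen after the values had been seen. Counted per cell, Tcf7 UMIs were more numerous in dividing than in other cells of both lineages in both libraries.

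Slamf6 in dividing cells differed between the libraries. It was at 147 against 158 CPM in dividing and other conventional cells at 16 weeks and at 102 against 195 CPM at 8 weeks, log2 ratios of -0.09 (-0.51 to 0.28) and -0.93 (-1.32 to -0.58). In Cd8 cells its log2 ratios were -0.01 (-0.76 to 0.61) and -1.003 (-1.74 to -0.38). The 2 lineages thus had like Slamf6 values within each library. Id3 in Cd8 cells was at 79.1 against 148 CPM and at 40.2 against 132 CPM, log2 ratios of -0.86 (-1.77 to -0.14) and -1.66 (-2.70 to -0.87). In conventional cells the Id3 ratio was 0.74 (0.30 to 1.14) at 16 weeks, and 0.04 (-0.51 to 0.54) without the cell of 27 UMIs, and -0.20 at 8 weeks. Id2 had intervals that included 0 in both lineages at both ages. In conventional cells at 8 weeks its ratio of -0.29 became -1.14 without cells of 2 or more beta chains, -1.03 in cells without Il2ra, Ikzf2 and Gpr83 UMIs and -0.84 without the top cell of each class, and at 16 weeks the same marker gate turned it to 0.69 in place of -0.31.

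Dividing cells had median depths of 11194.5 and 15304 UMIs against 2979 and 3008.5 in conventional cells, and 14458 and 11417 against 3178.5 and 3266 in Cd8 cells. Cells with 2 or more beta chains made up 19.4% and 19.1% of dividing conventional cells and 15.4% and 17.4% of dividing Cd8 cells, against 6.82% and 10.3% of other Cd8 cells. Lef1 was lower in dividing cells of both lineages, with log2 ratios of -2.05 and -1.84 in conventional and -2.61 and -2.22 in Cd8 cells. Over all T cells, 7 of 10 and 6 of 10 genes of the progenitor-state list were lower past 1.5-fold and 0 were higher. Beside these counts, 18.7% and 16.9% of all genes were lower and 18.4% and 15% higher. Myb, a factor of TCF-1-expressing progenitors that also acts in cell division, had log2 ratios of 2.21 and 1.64, and Bach2, which restrains effector genes, of -2.44 and -1.01.

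Receptor chains gave a paired alpha and beta sequence for 1391 T cells at 16 weeks and 1358 at 8 weeks. Clones, cells with the same pair, numbered 37 with 2 or more cells at 16 weeks and 65 at 8 weeks, and the largest had 7 and 14 cells. In conventional Cd4 cells, Tcf7 was at 177 CPM in 54 cells of such expanded clones against 233 CPM in 447 cells seen once at 16 weeks, and at 179 CPM in 114 against 222 CPM in 390 cells at 8 weeks. The log2 ratios were -0.38 (-0.82 to 0.01) and -0.31 (-0.60 to -0.03). The 8-week ratio was -0.11 (-0.44 to 0.21) without dividing cells, -0.0068 with equal weight per cell and 0.073 among cells with 2000 to 5000 UMIs, and the 16-week ratio without dividing cells was -0.09 (-0.59 to 0.35). At equal depth a Tcf7 UMI was found in 32.1% against 32.0% of cells and in 37.2% against 30.9%, which does not follow the CPM, so no order between expanded and single cells is read from the shares.

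Slamf6 was at 242 against 148 CPM in expanded and single conventional cells at 16 weeks, a log2 ratio of 0.72 (0.33 to 1.07), and at 183 against 168 CPM at 8 weeks, a log2 ratio of 0.12 (-0.18 to 0.41). Without dividing cells these were 0.86 (0.40 to 1.28) and 0.39 (0.07 to 0.70). Past 1.5-fold, 13.8% and 8.27% of all genes were higher and 10.7% and 6.55% lower. Id3 was at 186 against 88.0 CPM at 16 weeks, but the single cell of 27 UMIs held 45.0% of the UMIs of the expanded cells, and without it the log2 ratio was 0.34 (-0.26 to 0.87) in place of 1.09. Without all dividing cells it was -0.17 (-1.05 to 0.54). At 8 weeks Id3 was at 89.4 against 116 CPM, with a log2 ratio of -0.37 (-0.79 to 0.03). Id2 was at 124 against 84.8 CPM and at 68.7 against 65.5 CPM. In the same comparison Lef1 had log2 ratios of -2.17 and -1.86, Satb1 of -2.62 and -2.45, and Lag3 of 1.78 and 1.38. Median depth was 4760 and 4924.5 UMIs in expanded against 3241 and 3310.5 in single cells.

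In Cd8 cells the comparison could be made at 8 weeks, with 28 expanded and 185 single cells, since 9 expanded cells at 16 weeks were too few. Tcf7 was at 99.5 against 167 CPM and Slamf6 at 79.6 against 148 CPM, log2 ratios of -0.71 (-1.50 to -0.07) and -0.85 (-1.74 to -0.14), where 8.55% of all genes were lower and 16.1% higher past 1.5-fold. They rest on 20 and 16 UMIs, and among cells with 2000 to 5000 UMIs the Tcf7 ratio was 0.83. Without dividing cells the ratios were -0.17 (-1.004 to 0.51) for Tcf7 and -0.57 (-1.61 to 0.24) for Slamf6. Id3 and Id2 had log2 ratios of 0.10 and 0.30 whose intervals included 0.

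**Figure D4:**
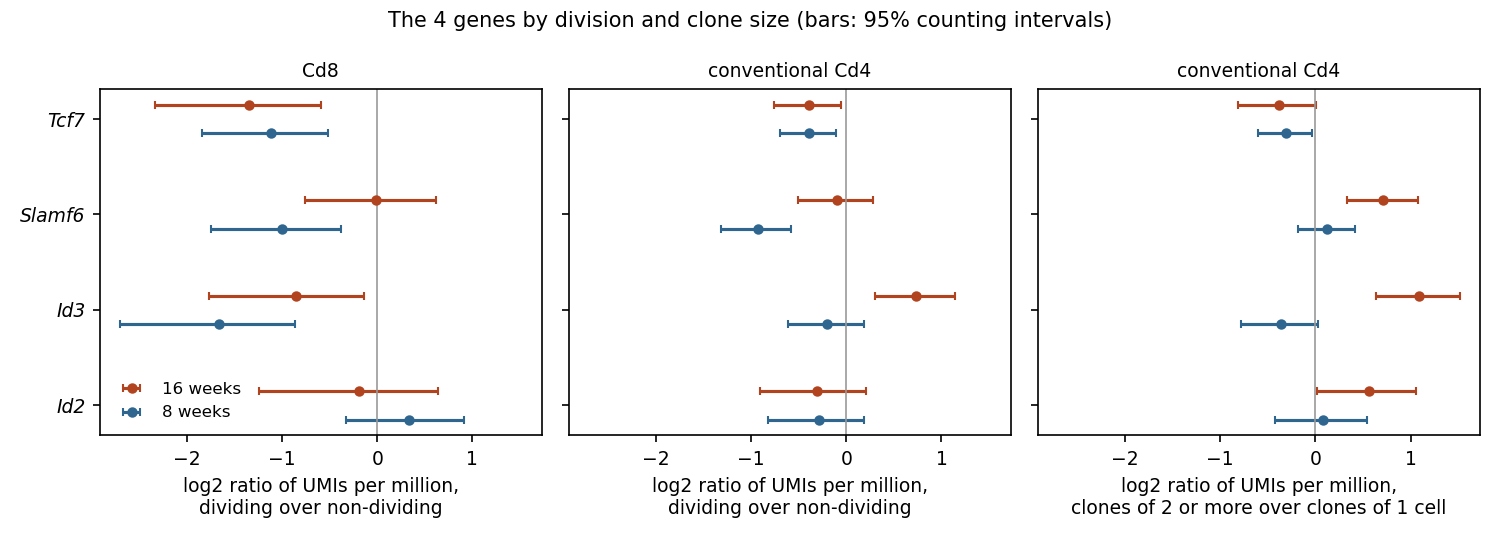
Log2 ratio of CPM for the 4 genes in dividing over non-dividing cells and in expanded over single-cell clones, by lineage and age, with 95% counting intervals. Tcf7 lay at -1.35 and -1.12 in dividing Cd8 cells and at -0.40 and -0.39 in dividing conventional Cd4 cells.

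Single clones varied widely in all 4 genes. The receptor sequences of the largest clone at 16 weeks, C1, and of the largest at 8 weeks, C4, are shown. Their Tcf7 levels were the lowest of the 13 clones with 5 or more cells. Those of C13, from 8 weeks, are shown because its Tcf7 level was the highest of these clones. Each line gives the CDR3, the stretch of the chain that contacts peptide, as assembled from the cells, 5′ to 3′.
C1 alpha: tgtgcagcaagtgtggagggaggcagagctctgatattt
C1 beta: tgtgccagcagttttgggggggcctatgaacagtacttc
C4 alpha: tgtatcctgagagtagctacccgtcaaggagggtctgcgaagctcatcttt
C4 beta: tgtgccagcgggggatatgaacagtacttc
C13 alpha: tgtgctctgggtgacggtact
C13 beta: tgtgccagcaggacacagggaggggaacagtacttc
C1 had 7 cells, of which 6 had a Pdcd1 UMI and 3 were dividing, and held 2 Tcf7 UMIs (22.2 CPM), 10 Slamf6 UMIs (111 CPM) and 16 Id2 UMIs (178 CPM). Of the C1 cells 3 were conventional and 1 was Foxp3-positive, and the rest had UMIs of both Cd4 and a Cd8 gene. Many T cells of that last kind had 2 or more beta chains, and whether C1 held pairs of cells in 1 droplet was not tested. Its median depth was 11041 UMIs. C4 had 14 cells, 11 with a Pdcd1 UMI, and held 9 Tcf7 UMIs in 6 cells (90.5 CPM, interval 41.4 to 172). It also held 17 Slamf6 UMIs in 12 cells (171 CPM, interval 99.6 to 274) and 1 Id3 UMI. The Tcf7 and Slamf6 intervals of C4 overlapped. C13 had 5 cells, all with Tcf7, and held 10 Tcf7 UMIs (448 CPM, interval 215 to 823) and 0 Id3 UMIs. Its alpha stretch is short and lacks the final ttt or ttc of the other stretches of the large clones. Whether it is complete was not checked. The Tcf7 intervals of C1 (2.69 to 80.4 CPM) and C13 did not overlap, although both clones hold few UMIs and were picked after their values were seen.

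Among the other large clones, C12 had Slamf6 in all 5 of its cells, with 11 UMIs (409 CPM), and C7 had 11 Id3 UMIs in 2 of its 6 cells (288 CPM). C10, whose 5 cells were all Cd8 cells with a Pdcd1 UMI, held 8 Tcf7 UMIs (198 CPM) and 5 Id3 UMIs. Conventional cells of clones with 5 or more cells numbered 12 at 16 weeks and 39 at 8 weeks, and their Tcf7 was at 150 and 219 CPM, their Slamf6 at 259 and 232 CPM. A Tcf7 UMI was present in at least 2 cells of all 13 clones, and a Slamf6 UMI in at least 1.

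Detection of 2 of the genes in the same cell was counted after thinning to 1700 UMIs, beside the number expected if the genes were detected independently. In conventional Cd4 cells Tcf7 and Slamf6 were found together in 46 of 622 cells at 16 weeks, with 39.4 expected, and in 52 of 604 at 8 weeks, with 41.8 expected. The odds ratios were 1.35 (0.87 to 2.07) and 1.55 (1.01 to 2.35). Tcf7 and Id3 were found together in 31 cells with 26.2 expected and in 41 with 32.1 expected, odds ratios of 1.35 (0.80 to 2.25) and 1.59 (1.00 to 2.52). Both pairs thus lay slightly above independence in both libraries, by amounts near the counting error.

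In Cd8 cells Slamf6 and Id3 were found together in 16 of 306 cells at 16 weeks, with 7.97 expected and an odds ratio of 3.20 (1.48 to 6.77). At 8 weeks it was 11 of 285 cells with 10.1 expected and an odds ratio of 1.13 (0.49 to 2.47). The low 8-week value was seen at that depth alone: at 16 and 8 weeks the odds ratios were 2.72 and 3.31 with 1000 UMIs per cell, 2.65 and 2.50 with 2500, and 2.65 and 2.84 without thinning. The 8-week values with 1000 and 2500 UMIs rest on 9 and 21 cells with both genes. Without thinning, deeper cells show any 2 genes together more often, so no depth is taken as the right one. Tcf7 and Slamf6 gave odds ratios of 1.69 and 1.18 in Cd8 cells, with intervals that included 1. Over all T cells, Tcf7 and Id3 gave 1.43 (1.05 to 1.93) and 1.25 (0.93 to 1.67), and Slamf6 and Id3 gave 1.53 (1.08 to 2.15) and 1.13 (0.80 to 1.58), so both intervals left out 1 at 16 weeks. Tcf7 and Slamf6 gave 1.26 and 1.26, Tcf7 and Id2 1.05 and 0.71, Slamf6 and Id2 0.75 and 1.26, and Id3 and Id2 0.74 and 0.92, none with an interval that left out 1. These values over all T cells pool classes with different levels of the genes, and cells with UMIs of both lineages. They therefore do not stand for co-detection within a class. None of the 4 genes was detected in 43.2% and 43.5% of conventional, 50% and 45.6% of Cd8, and 51.6% and 63.0% of Foxp3-positive cells at 16 and 8 weeks. All 4 were detected together in 2 of 1774 and 1 of 1682 T cells.

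**Figure D5:**
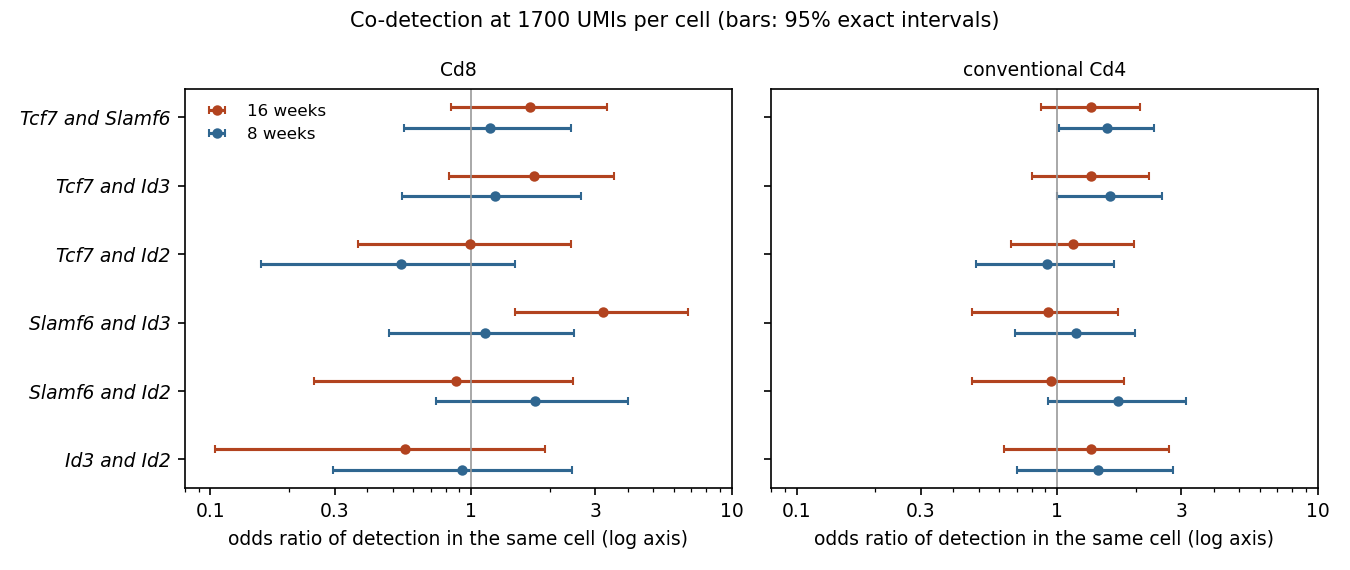
Odds ratios of detecting 2 of the genes in the same cell after thinning to 1700 UMIs, by class and age, on a log axis, with 95% intervals. Slamf6 and Id3 in Cd8 cells at 16 weeks, at 3.20, stood farthest above 1 among the Cd8 and conventional Cd4 pairs.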

How the data were processed

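Islet T cells were measured by 5' droplet sequencing. The deposited gene tables hold raw UMI counts, whole and without any scaling, written by software version 3.0.1 per the file headers, and the authors also gave tables of receptor contigs with counts of reads and UMIs per chain. Per the submitters' processing notes the build was mm10 and Seurat was a tool. Which aligner, annotation, strand setting and barcode filter were used is not given in the sources used here. The 4 genes and all gene lists were chosen with earlier results of these data known.

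Python 3.11.15, numpy 2.4.6, pandas 2.3.3, scipy 1.17.1 and matplotlib 3.10.9 were used. Barcodes needed at least 500 genes and at most 10% mitochondrial UMIs (1934 passed at 16 weeks and 1875 at 8 weeks). Cells with 1% or more acinar or endocrine UMIs, or with UMIs of 2 or more B cell or myeloid genes, were left out. Conventional Cd4 cells had a Cd4 UMI and none of Cd8a, Cd8b1 or Foxp3, Foxp3-positive cells a Cd4 and a Foxp3 UMI without Cd8 UMIs, and Cd8 cells a Cd8a or Cd8b1 UMI without Cd4. No clustering was used and no doublet caller was run: 437 of 3790 T cells had 2 or more productive beta chains and were kept, then left out as an alternative. Clones share V, J and CDR3 nucleotides of the alpha and beta chains with the most UMIs.

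UMIs were summed per class, and 0.5 UMIs were added before a log2 ratio of CPM. With 1 library per age no test could be made. The 95% intervals (exact Poisson for levels, exact conditional for ratios, Clopper-Pearson for shares) cover counting error only, not variation between cells, mice or libraries. Intervals of a difference between ratios are approximate. A share of all genes past 1.5-fold, among genes with 50 or more UMIs in both classes together, stands beside each comparison. Named genes were, beside the 4, up to 4 genes per list past 1.5-fold the same way in both libraries, by the smaller ratio. Some genes that this rule or the likeness search names are not reported here. Lef1 and Satb1 in every comparison, Ifng and Lag3 were set beside the 4 genes after their values were seen. Trac, Trbc1, Trbc2 and Trdc are not in the gene tables used here. The ratios and intervals were run on simulated sums with independent counts per gene, which is the setting they assume. UMIs gathered in few cells were not simulated, so coverage for such genes was not tested. Alternatives changed the cell filter, doublet handling, weighting, totals, depth, gates, division and clone rules and thinning, or left out dividing or single cells. Gene positions came from GENCODE M21 by Ensembl identifier.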

Additional observations from a re-analysis of the deposited data

Results flagged for a closer look

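In Foxp3-positive Cd4 cells, Id3 differed in opposite directions with Pdcd1 in the libraries of the 2 ages. At 16 weeks the log2 ratio of Pdcd1-positive to Pdcd1-negative cells was 0.77 (0.09 to 1.51), from 57 UMIs in 45 cells and 26 UMIs in 48 cells. At 8 weeks it was -0.86 (-1.58 to -0.16), from 33 UMIs in 55 cells and 39 UMIs in 61 cells. The 16-week ratio minus the 8-week ratio was 1.63 (0.69 to 2.57), an interval for counting error only, and with 1 library per age the difference was not tested. Of the 57 UMIs in Pdcd1-positive cells at 16 weeks, 1 cell held 33.3%, and the 4 cells with 5 or more UMIs held 68.4%. Without dividing cells the ratios were 0.39 (-0.36 to 1.21) at 16 weeks and -0.37 (-1.27 to 0.51) at 8 weeks. The other alternatives, among them leaving out cells with 2 or more beta chains, were not run on this contrast. In Foxp3-positive cells 6.15% of all genes at 16 weeks and 6.92% at 8 weeks were higher past 1.5-fold with Pdcd1, and 4.62% and 4.18% were lower.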

How the results depend on the processing

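Of 976 values recomputed for 128 results, 897 stayed within the main counting interval, 76 moved further and 3 turned round, and the causes were not tested unless stated. No paired analysis was possible because each age has 1 RNA library and no replicate. Cells of 2000 to 5000 UMIs turned round Tcf7 in Cd8 cells at 8 weeks, with log2 ratios of 0.66 for Pdcd1-positive over negative and 0.83 for expanded over single cells. That depth range also moved, with Pdcd1 in conventional cells, Tcf7 to 0.31 and 0.18 and Slamf6 to 0.91 and 0.64 at 16 and 8 weeks, and Id3 to 0.61 at 8 weeks, and in Cd8 cells Slamf6 to 0.49 at 16 weeks and Id3 to 2.04 and 0.99. For Pdcd1-positive Cd8 over conventional cells it gave 1.74 for Id3 at 16 weeks, and -0.048 for Tcf7 and 1.68 for Id2 at 8 weeks. For Foxp3-positive over conventional cells it gave -1.92 for Tcf7 and 0.47 for Slamf6 at 16 weeks, and -0.45 for Slamf6, 0.081 for Id3 and -1.17 for Id2 at 8 weeks, and between the ages -0.50 for Tcf7 and 1.84 for Id2. For expanded over single conventional cells it gave 1.29 for Slamf6 and 0.45 for Id3 at 16 weeks, and 0.073 for Tcf7 and 0.71 for Id2 at 8 weeks, and 1.63 for Id3 in Cd8 cells. Too few dividing cells lay in that range to recompute division. Without cells of 2 or more beta chains, the age ratios in Foxp3-positive cells became -0.57 for Tcf7, 0.0045 for Id3 and 1.24 for Id2, their ratios to conventional cells -1.89 for Tcf7 at 16 weeks and 0.18 for Id3 and -0.74 for Id2 at 8 weeks, and Id2 in dividing cells at 8 weeks -0.62 over all T cells and -1.14 in conventional cells. Equal weight per cell gave Id3 1.07 and -0.38 between the ages in Foxp3-positive and conventional cells, and at 16 weeks 1.40 for Foxp3-positive over conventional, 1.28 with Pdcd1 in Cd8, 1.47 for Pdcd1-positive Cd8 over conventional and 0.43 for expanded cells. It gave Slamf6 0.82 and 0.41 with Pdcd1 in conventional cells and Tcf7 -0.0068 for expanded cells at 8 weeks. Conventional cells also without Il2ra, Ikzf2 and Gpr83 gave 1.00 for Id2 (16 weeks) and 0.47 for Slamf6 (8 weeks) with Pdcd1. In dividing cells that gate gave 1.88 and 0.25 for Id3 and 0.69 and -1.03 for Id2 at 16 and 8 weeks, and in expanded cells -0.93 for Id3 at 8 weeks. Other moved values at 16 weeks were -0.10 for Id3 in Foxp3-positive over conventional cells under the stricter cell filter, -1.37 (all T) and -2.41 (Cd8) for Tcf7 with 5 or more division genes, and 0.55 for Id3 in clones by beta chain alone. Leaving out dividing cells, an alternative chosen after seeing the data, gave with Pdcd1 -0.013 and -0.12 for Tcf7 in Cd8 cells at 16 and 8 weeks, 0.27 for Slamf6 and 1.45 for Id3 there at 16 weeks, and in conventional cells 0.043 for Id3 at 16 weeks and 0.46 for Slamf6 at 8 weeks. It gave 1.74 for Id3 in Pdcd1-positive Cd8 over conventional cells at 16 weeks and turned Id3 round, to -0.17, in expanded conventional cells at 16 weeks. Leaving out the 1 top cell of each class, also chosen then, gave Id3 0.10 (dividing conventional), -1.89 (dividing Cd8) and 0.41 (expanded) at 16 weeks and Id2 -0.84 (dividing conventional) at 8 weeks. An acinar cut of 0.2%, also chosen then, moved none of the 88 ratios it was tried on. Log2 ratios of detection, Foxp3-positive over conventional, moved to -1.83 for Tcf7 at 16 weeks with 1000 UMIs per cell, and unthinned to 0.47 and -0.048 for Slamf6 at 16 and 8 weeks and -0.58 for Tcf7 at 8 weeks. Odds ratios moved, in Cd8 cells, to 0.31 (Tcf7 and Id2) and 0 (Id3 and Id2) at 16 weeks with 1000 UMIs, and for Slamf6 and Id3 at 8 weeks to 3.31 with 1000, 2.50 with 2500 and 2.84 unthinned. In conventional cells they moved for Slamf6 and Id2 to 2.12 with 1000 and 2.33 unthinned at 16 weeks and to 0.78 with 1000 and 0.50 with 2500 at 8 weeks, and for Tcf7 and Slamf6 at 8 weeks to 2.71 unthinned. With genes of 20 or more UMIs, the share of all genes past 1.5-fold became 15.9% (Cd8) and 12.8% (conventional) between the ages and 18.2% for Cd8 over conventional at 16 weeks, and with 100 or more 4.87% and 4.797% between the ages. Depth limits all per-cell statements: at 1700 UMIs 45.8% and 44.0% of T cells at 16 and 8 weeks showed none of the 4 genes.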

Other observations

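Genes whose levels ran most like those of the 4 genes were looked for over 14 sums of cells (class by library, not independent of each other, sharing 2 libraries and depth differences), among 2403 genes with a mean of 50 CPM or more. For Tcf7 they were Gm20400, Max, Slfn1, Nsg2 and Dennd2d, with Pearson correlations of 0.85, 0.84, 0.82, 0.82 and 0.82 and Spearman correlations of 0.88, 0.79, 0.87, 0.88 and 0.78. Slamf6 ran most like Tle3, a co-repressor that TCF-1 can bind, with 0.80 (Spearman 0.75), and Ccnd2, Gpsm3 and D10Jhu81e followed with 0.79, 0.79 and 0.78 (Spearman 0.65, 0.75 and 0.78). Id3 ran most like Myh9, with 0.81 (Spearman 0.83), then Epc1, Surf1, Tomm34 and Tmem50a, with 0.79, 0.79, 0.77 and 0.76 (Spearman 0.45, 0.78, 0.58 and 0.49). Id2 ran most like Lax1, an adaptor of lymphocyte receptor signalling, with 0.83 (Spearman 0.71), then Ppp6c, Atp6v0a2, Arf3 and Capn1, with 0.81, 0.78, 0.75 and 0.74 (Spearman 0.71, 0.77, 0.68 and 0.68). Among the 4 genes themselves, Tcf7 and Slamf6 had a Pearson correlation of 0.73 (Spearman 0.64), Tcf7 and Id3 of 0.45 (0.20) and Id3 and Id2 of 0.02 (0.20). These are descriptions over 14 points and carry no test. The Id3 correlations include dividing conventional cells at 16 weeks, at 147 CPM of Id3, or 90.4 CPM without the top Id3 cell. They were not recomputed without it.

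T cells with UMIs of both Cd4 and a Cd8 gene numbered 89 at 16 weeks and 81 at 8 weeks, with median depths of 8568 and 9238 UMIs, and 66.3% and 55.6% of them had 2 or more productive beta chains. Their Tcf7 was at 126 and 109 CPM.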
